A study of Homo sapiens with 16 samples.

Results

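The levels of 9 immediate early genes of OCI-AML3 cells were followed through 5 conditions: the zinc finger factors EGR1, EGR2 and EGR3, the orphan nuclear receptors NR4A1, NR4A2 and NR4A3, and the immediate early response genes IER2, IER3 and IER5. They were taken as the rows of the deposited table whose Ensembl identifiers pair with these symbols, 9 of 62700 genes, a rule that uses no measured value, although the set was proposed with earlier results of these data known. Adding the LSD1 and GCN5 inhibitors to a retinoid was accompanied by about 3-fold more EGR1 RNA and less NR4A2 RNA, whereas EGR3 was higher with a retinoid whether or not the inhibitors were present, and IER3, low in untreated cells, was higher in every treated group.

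Immediate early genes are transcribed within minutes of a stimulus from factors already present in the cell, mainly serum response factor with its ternary complex partners, and CREB, downstream of the MAP kinases. Many of their transcripts are short-lived, so their levels follow the current rate of transcription closely. EGR1, EGR2 and EGR3 bind GC-rich sites and take part in monocyte and macrophage development, the NR4A receptors act without a known hormone, NR4A1 and NR4A2 can pair with RXR, the partner of the retinoic acid receptors, and NR4A1 and NR4A3 are known as suppressors of myeloid leukemia.

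OCI-AML3 is an established acute myeloid leukemia line, and all libraries come from it, with peripheral blood given as the tissue of origin. The groups were Untreated (4 libraries), ATRA, AM80, ATRA_GSK-LSD1_MB3 and AM80_GSK-LSD1_MB3 (3 libraries each). ATRA is all-trans retinoic acid, which activates all retinoic acid receptors, AM80 is tamibarotene, a synthetic agonist selective for RARA, GSK-LSD1 inhibits the demethylase LSD1, and MB3 inhibits the acetyltransferase GCN5. Treated cells were exposed for 3 h, and the labels give no time for the untreated cells. The study's methods give a dose of 0.1 µM for each of ATRA, AM80 and GSK-LSD1 in cell lines, and of 100 µM for MB3. No group received the inhibitors without a retinoid or one inhibitor without the other, so the effects of GSK-LSD1 and MB3 cannot be told apart, and no solvent is named for the untreated cells. The 2 groups with inhibitors are called the ATRA combination and the AM80 combination below. Nothing in the labels says that libraries of a group came from separate cultures, so p-values measure the spread between these libraries, which may be technical.

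The libraries held 11963898 to 33789718 gene reads each. All values are normalized counts, the reads of a gene divided by the size factor of its library. The untreated replicate 4 stood apart from its group, since the chi-square of its reads against the other untreated libraries was 14.3 to 20.7 per degree of freedom, and theirs against each other 3.37 to 4.90. AM80 replicate 2, the deepest library, stood apart likewise, at 15.1 to 22.7 against 4.18 between the other AM80 libraries, and the 13 remaining pairs of replicates ranged from 2.55 to 5.59. The 8 myeloid markers summed to 20188 to 28176 normalized counts per library, and the 3 T cell and 3 erythroid markers to at most 2.22. All 4 genes of a retinoid response list rose with each retinoid, among them TGM2, a transglutaminase induced by retinoic acid, by 7.01 with ATRA and 6.84 with AM80 on the log2 scale. By limma at an adjusted p under 0.05, ATRA raised 12.5% of all tested genes and AM80 15.4%. On adding the inhibitors 0 of the 4 listed genes rose and 3 fell beside either retinoid. Of all tested genes, 24.9% rose and 24.4% fell when they joined ATRA, and 19.9% and 19.5% when they joined AM80. Endothelial markers, led by PECAM1, which myeloid cells also express, summed to 985 to 1171 in untreated cells, 2507 to 2775 with a retinoid and 1656 to 2151 in the combinations, and their part in the results was not tested.

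The promoters of EGR1, IER2 and IER5 are shown because limma called these members higher on adding the inhibitors to AM80, EGR1 and IER5 also beside ATRA. IER3, whose larger log2 difference from AM80 of 1.32 just missed the limma threshold (adjusted p = 0.0528), had no RefSeq promoter entry. Each line holds the 250 bases before the RefSeq start of the gene (GRCh38.p14, plus strand): EGR1 at chr5:138465229-138465478, IER2 at chr19:13150161-13150410 and IER5 at chr1:181088450-181088699. Capitals mark matches, on either strand, to the CArG box bound by serum response factor, to the core TGACG of the cyclic AMP response element (on the shown strand CGTCA), and to GAANNTTC, an inverted pair of heat shock factor units.
EGR1: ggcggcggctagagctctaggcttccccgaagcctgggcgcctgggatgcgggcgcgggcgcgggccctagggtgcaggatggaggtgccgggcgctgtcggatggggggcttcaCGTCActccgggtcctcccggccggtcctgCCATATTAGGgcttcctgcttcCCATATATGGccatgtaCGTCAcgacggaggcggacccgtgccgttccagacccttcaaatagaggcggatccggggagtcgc
IER2: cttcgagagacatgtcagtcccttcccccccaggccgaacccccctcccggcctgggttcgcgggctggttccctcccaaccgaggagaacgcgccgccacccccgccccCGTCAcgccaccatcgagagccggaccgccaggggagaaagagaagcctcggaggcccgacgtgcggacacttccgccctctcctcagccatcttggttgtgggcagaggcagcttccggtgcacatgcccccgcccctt
IER5: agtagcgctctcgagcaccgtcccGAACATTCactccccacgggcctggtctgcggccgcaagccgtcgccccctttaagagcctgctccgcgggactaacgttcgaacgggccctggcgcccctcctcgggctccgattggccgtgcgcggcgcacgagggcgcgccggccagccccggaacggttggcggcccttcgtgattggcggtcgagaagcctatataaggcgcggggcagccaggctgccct

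The EGR1 window held 2 CArG boxes, at positions -105 to -96 and -83 to -74 counted from the gene's start, between 2 TGACG cores at -135 to -131 and -66 to -62. A CArG box occurred in 1.16% of all 35116 RefSeq promoter windows of this length, and TGACG in 21.2%. The IER2 window had 1 TGACG core, at -140 to -136, and no CArG box, and the IER5 window had neither but held GAANNTTC, found in 5.78% of windows, at -226 to -219. Of the other members, 1 of 3 EGR2 windows had a CArG box and 2 TGACG cores, the NR4A3 window had 4 TGACG cores, and the 2 NR4A1 windows had none of the 3 motifs. No member window held TTCNNGAA, the other arrangement of 2 heat shock units (6.62% of windows), the EGR sites GCGTGGGCG (0.720%) and GCGGGGGCG (4.72%), the NR4A monomer site AAAGGTCA (1.05%) or the retinoic acid receptor unit AGGTCA (12.1%). These are matches of letters in short windows, the table holds 6 of the 9 members, and binding was not measured.

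Levels of different genes were compared per kilobase of exon. In untreated cells IER2 stood at 263 ± 21.4 normalized counts per kb (SD, n = 4), IER5 at 222 ± 29.9 and EGR1 at 101 ± 12.2. NR4A2 (12.2 ± 1.42) and NR4A1 (10.6 ± 1.54) were next, followed by EGR3 (3.33 ± 1.56) and IER3 (1.45 ± 1.68). The libraries of IER2 and IER5 overlapped, as did those of NR4A2 and NR4A1 and those of EGR3 and IER3, while IER5 stood above EGR1 and EGR1 above NR4A2 in every library. By the mean over all 16 libraries, IER2 and IER5 lay above 82.7% and 81.9% of the tested genes per kb and EGR1 above 65.6%. In the combinations the order of the lower genes differed, with IER3 next after EGR1, at 20.5 ± 2.86 per kb with the ATRA combination and 27.6 ± 8.29 with the AM80 combination (n = 3 each), above EGR3, NR4A1 and NR4A2 in every library. EGR2 and NR4A3 averaged under 1.1 normalized counts per kb in each of the 5 groups.

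**Figure D1:**
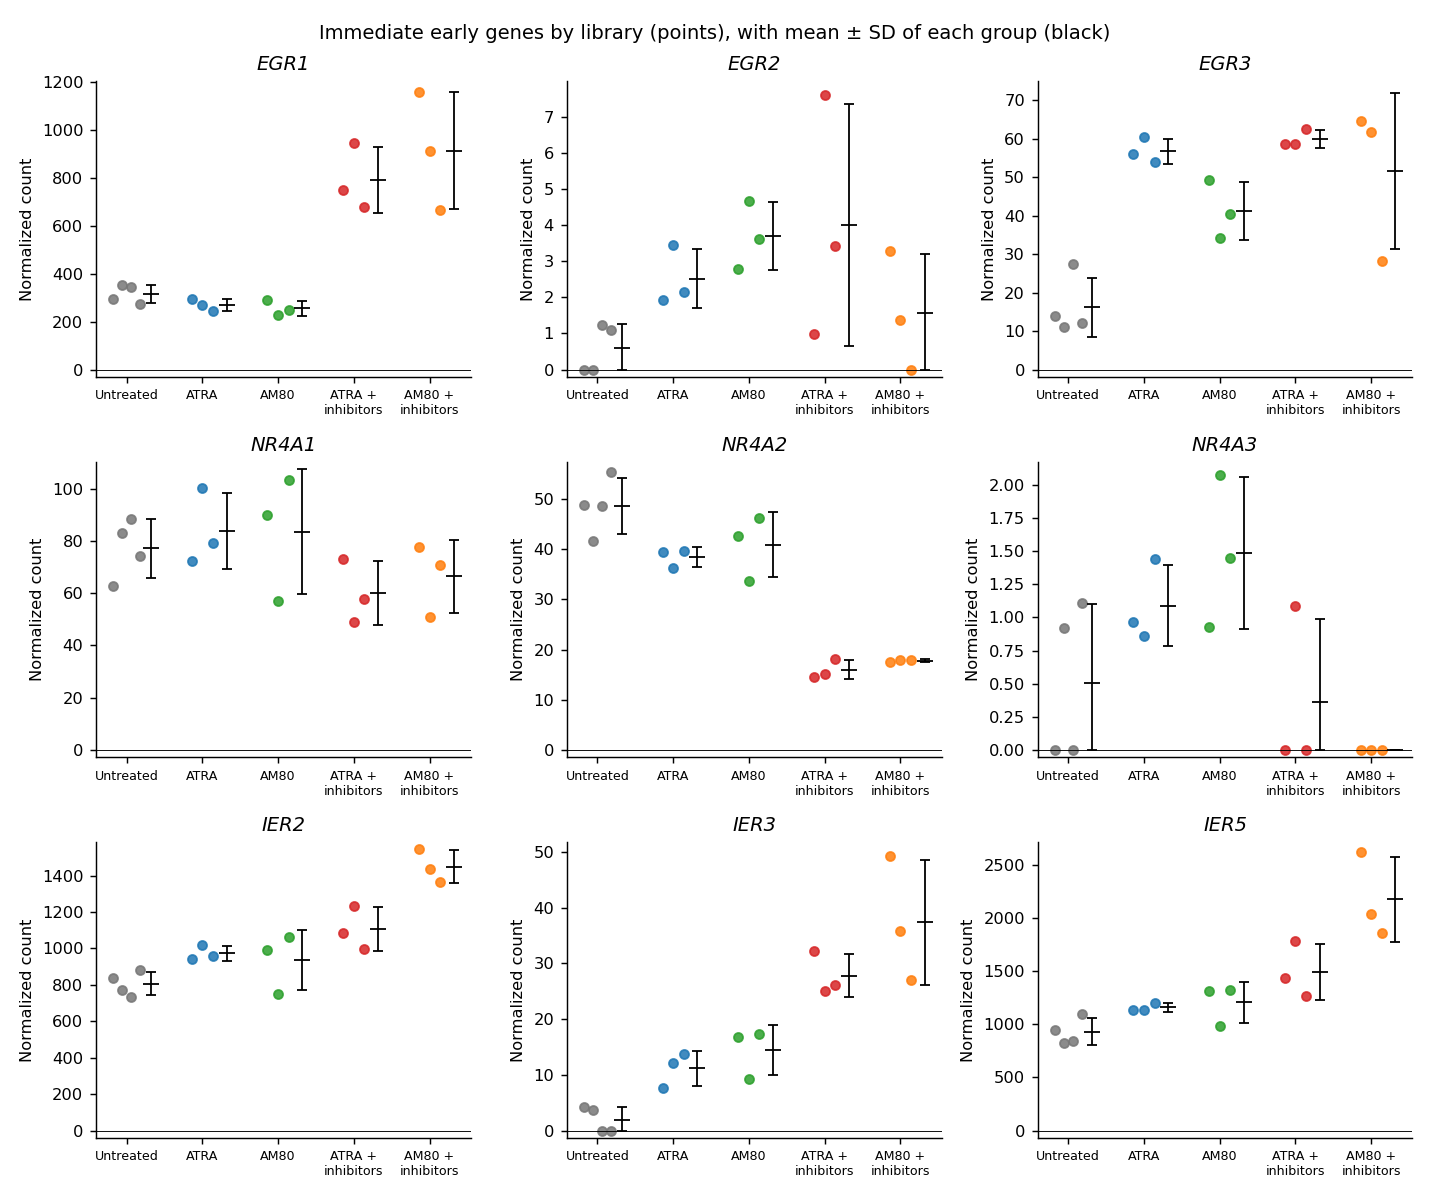
Normalized counts (y axis, linear from 0) of the 9 genes in each of the 16 libraries, with 1 point per library and 1 column of points per group. Black bars give the mean and SD of each group, with the lower arm ended at 0, and show EGR1 from 667 to 1155 in the 6 combination libraries against at most 353 elsewhere.

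Of the 9 members, 7 averaged 10 or more normalized counts and were tested, and EGR2 and NR4A3 were not. In the limma fit of log2(normalized count + 1), with Benjamini-Hochberg adjustment over 14643 genes, 2 members were higher and 0 lower with ATRA than in untreated cells at an adjusted p under 0.05, while 12.5% of all tested genes were called higher and 12.1% lower. With AM80, 3 were higher and 0 lower, against 15.4% and 13.4% of all genes. Adding the inhibitors to ATRA gave 2 higher and 1 lower (all genes 24.9% and 24.4%), and adding them to AM80 gave 3 higher and 1 lower (19.9% and 19.5%). Both combinations gave 5 higher and 1 lower than untreated cells, where 30.2% and 30% of all genes were called with the ATRA combination and 28% and 26.6% with the AM80 combination. The comparisons of each retinoid and of each combination with untreated cells share the same 4 libraries, so their counts do not support one another. The median log2 difference of the 7 members was 0.27 with ATRA and 0.20 with AM80, and 0.18 and 0.64 on adding the inhibitors to ATRA and to AM80, where the medians of all tested genes lay between -0.02 and -0.01.

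**Figure D2:**
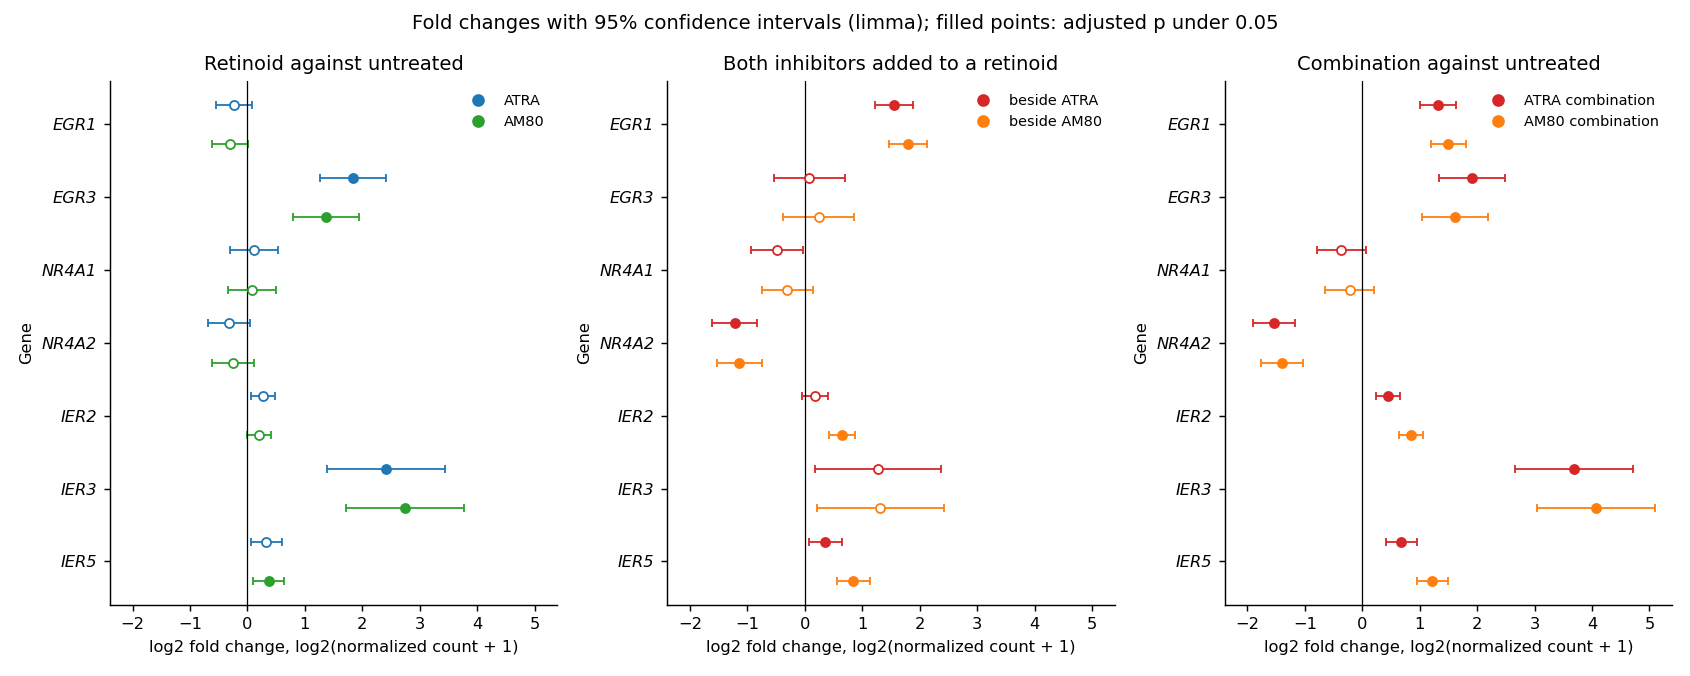
Fold changes (x axis, log2 of normalized count + 1) of the 7 tested genes with 95% confidence intervals from limma, for the retinoids against untreated cells, the inhibitors added to a retinoid, and the combinations against untreated cells. Filled points have an adjusted p under 0.05 and show EGR3 and IER3 raised by both retinoids, and EGR1 raised and NR4A2 lowered when the inhibitors were added.

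EGR1, a growth and stress induced activator (chromosome 5, 138465490 to 138469315, plus strand, 2 exons), had 296, 353, 343 and 273 normalized counts in the untreated libraries. With ATRA it had 292, 268 and 243, and with AM80 291, 229 and 248, so both groups overlapped the untreated libraries. The fold changes of -0.23 and -0.30 on the log2 scale did not pass the test (adjusted p = 0.281 and 0.139 by limma). With the ATRA combination the counts were 749, 944 and 677, and with the AM80 combination 1155, 913 and 667. Each of these 6 libraries lay above all of the other 10. EGR1 rose by 1.55 ± 0.16 (SE) over ATRA (adjusted p = 1.97e-07) and by 1.80 ± 0.16 over AM80 (adjusted p = 2.45e-08), or 2.92-fold and 3.48-fold. Against untreated cells it was 2.49-fold and 2.83-fold higher. Its spread was widest in the AM80 combination, 912 ± 244 (SD, n = 3).

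EGR3, which is closely related to EGR1 and often induced with it (chromosome 8, 22687659 to 22693302, minus strand), was at 13.9, 11.1, 27.4 and 12.2 normalized counts in untreated cells. ATRA libraries had 55.9, 60.4 and 54.02, and AM80 libraries 49.2, 34.2 and 40.5. No retinoid library reached down to the untreated range, and untreated replicate 3 was the highest of its group. EGR3 rose 3.58-fold with ATRA (log2 1.84, 95% confidence interval 1.27 to 2.41, adjusted p = 2.91e-05) and 2.59-fold with AM80 (log2 1.38, interval 0.80 to 1.95, adjusted p = 0.000633). The counts were 58.6, 58.7 and 62.5 with the ATRA combination and 64.7, 61.9 and 28.3 with the AM80 combination. Adding the inhibitors left EGR3 with log2 differences of 0.08 (interval -0.54 to 0.69) and 0.24 (-0.37 to 0.86) that did not pass the test. The third library of the AM80 combination lay below every ATRA, AM80 and ATRA combination library and just above the highest untreated one.

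EGR2, a regulator of macrophages and of myelinating Schwann cells (chromosome 10, 62811996 to 62919900, minus strand), was barely detected. It had 0, 0, 1 and 1 reads in untreated cells, 2, 4 and 3 with ATRA and 3, 9 and 5 with AM80. These are 2 reads in all against 9 and 17, and per unit of depth the ratio to untreated cells was 4.40 with ATRA (exact 95% interval 0.911 to 41.8, counting error only) and 6.79 with AM80 (1.61 to 60.5). The ATRA combination had 1, 7 and 3 reads, a ratio of 6.83 (1.49 to 63.4), and the AM80 combination 3, 1 and 0, which is at the floor of 3 reads per library. In a limma fit without the filter, none of the 9 comparisons called EGR2, and the lowest adjusted p was 0.0608.

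NR4A2, known as NURR1 in dopamine neurons (chromosome 2, 156324432 to 156342348, minus strand), was the one tested member that fell. Untreated libraries had 48.8, 41.6, 48.6 and 55.4 normalized counts. The retinoid libraries had 39.5, 36.2 and 39.6 with ATRA and 42.7, 33.7 and 46.3 with AM80, below all untreated libraries for ATRA and overlapping them for AM80. Neither difference passed the test (log2 -0.32, adjusted p = 0.195, and -0.25, adjusted p = 0.316). With the inhibitors NR4A2 had 14.6, 15.2 and 18.2 beside ATRA and 17.5, 17.9 and 18.02 beside AM80. These 6 libraries all lay below the other 10. NR4A2 fell by 1.22 on the log2 scale against ATRA (SE 0.19, adjusted p = 2.53e-05) and by 1.14 against AM80 (SE 0.19, adjusted p = 6.27e-05). Against untreated cells it was at 0.343 of the level with the ATRA combination and 0.381 with the AM80 combination.

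NR4A1, or NUR77 (chromosome 12, 52022832 to 52059507, plus strand), was not called in any of the 9 comparisons. It had 62.8, 83.1, 88.4 and 74.2 normalized counts in untreated cells. The other libraries had 72.3, 100.1 and 79.2 with ATRA, 90.1, 57.0 and 103.4 with AM80, 73.2, 48.9 and 58.0 with the ATRA combination, and 77.8, 50.9 and 70.8 with the AM80 combination. All groups overlapped. The lowest adjusted p was 0.0718, for the ATRA combination against ATRA, where the log2 difference was -0.48 (interval -0.93 to -0.03). Without AM80 replicate 2 this difference passed (adjusted p = 0.0384), and so did that of the AM80 combination from AM80 (log2 -0.55, adjusted p = 0.0413). Scaling to total reads instead of the deposited size factors also called it, at -0.63 against ATRA (adjusted p = 0.0239).

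NR4A3, or NOR1 (chromosome 9, 99821855 to 99866891, plus strand), had at most 1 read in an untreated library, 2 in an ATRA library and 4 in an AM80 library. In the combinations 1 read was counted over 3 libraries with ATRA and 0 with AM80, and 0 reads allow up to 3 over that group. The filter left it out of the test. Fitted without the filter, it was called lower in the AM80 combination than in AM80 (adjusted p = 0.0306), a comparison of 0 reads with 7.

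IER5, a regulator of heat shock factor 1 and of protein phosphatase 2A (chromosome 1, 181088712 to 181092899, plus strand, 1 exon), had 945, 828, 847 and 1102 normalized counts in untreated cells. ATRA libraries had 1138, 1136 and 1206, and AM80 libraries 1312, 987 and 1329. The ATRA libraries lay above the untreated ones without passing the test (log2 0.33, adjusted p = 0.0714), and AM80, which overlapped them at replicate 2, passed it (log2 0.37 ± 0.13, adjusted p = 0.0343). The AM80 call was lost without AM80 replicate 1 or 3 (adjusted p = 0.142 and 0.134) or without untreated replicate 1, 2 or 3 (0.0545 to 0.0900), and the ATRA call was gained without untreated replicate 4 (adjusted p = 0.0151) or AM80 replicate 2 (adjusted p = 0.0402). Counts were 1433, 1785 and 1272 with the ATRA combination and 2629, 2045 and 1860 with the AM80 combination, in both cases above every library of the matching retinoid. IER5 rose by 0.35 ± 0.14 over ATRA (adjusted p = 0.0393) and by 0.85 ± 0.14 over AM80 (adjusted p = 5.93e-05). The rise over ATRA did not pass under scaling to total reads (log2 0.21, adjusted p = 0.200), under quantile normalization (0.143) or without the filter (0.0751). Nor did it pass without any 1 of the ATRA libraries or of the first and second ATRA combination libraries (adjusted p = 0.0592 to 0.238).

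IER2, a nuclear protein related to IER5 in its amino-terminal part (chromosome 19, 13150415 to 13154908, plus strand), had 840, 774, 735 and 882 normalized counts in untreated cells. It had 944, 1021 and 958 with ATRA and 991, 751 and 1063 with AM80. The ATRA libraries all exceeded the untreated ones, and AM80 replicate 2 fell among them. Neither retinoid passed the test (log2 0.27, adjusted p = 0.0539, and 0.20, adjusted p = 0.151). ATRA passed it without untreated replicate 4 (adjusted p = 0.0226) or AM80 replicate 2 or 3 (adjusted p = 0.0121 and 0.0390), and AM80 without AM80 replicate 2 (log2 0.35, adjusted p = 0.00591). IER2 had 1087, 1236 and 995 with the ATRA combination, overlapping ATRA, and 1545, 1438 and 1363 with the AM80 combination, above all other libraries. It rose 1.56-fold over AM80 (log2 0.64 ± 0.11, adjusted p = 7.91e-05), and its log2 difference of 0.18 from ATRA did not pass (adjusted p = 0.183). Against untreated cells the combinations were 1.37-fold and 1.79-fold higher (adjusted p = 0.000689 and 5.31e-07).

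IER3, an NF-kB target also called IEX-1 (chromosome 6, 30743199 to 30744554, minus strand), had 3, 4, 0 and 0 reads in untreated cells. With ATRA there were 8, 14 and 19 reads (7.71, 12.1 and 13.7 normalized counts), and with AM80 18, 18 and 24 (16.7, 9.32 and 17.4). All 6 retinoid libraries exceeded the untreated ones. IER3 rose with ATRA (log2 2.42 ± 0.49, adjusted p = 0.000857) and with AM80 (log2 2.75 ± 0.49, adjusted p = 0.000203). Its untreated mean of 1.97 lies under the filter of 10, which it passed through the treated groups, and in the limma fit without the filter these adjusted p-values were 0.00195 and 0.000442. By reads per unit of depth the ratios were 5.73 (exact 95% interval 2.54 to 15.1) and 6.84 (3.12 to 17.7), for counting error only. In the combinations the normalized counts were 32.2, 24.997 and 26.1 beside ATRA and 49.3, 35.7 and 27.04 beside AM80, above every library of the matching retinoid. The log2 differences of 1.27 (interval 0.17 to 2.37) and 1.32 (0.22 to 2.41) did not pass the test (adjusted p = 0.0516 and 0.0528, and 0.122 and 0.125 without the filter). edgeR on the recovered reads called both (adjusted p = 0.00695 and 0.00242), as did DESeq2 (0.00372 and 0.000801) and limma with any 1 untreated library left out (0.0215 to 0.0361). The untreated libraries are in neither difference but enter the shared estimate of the spread. Both differences also passed in limma with a pseudocount of 5 (adjusted p = 0.00493 and 0.00354) and with quantile normalization (0.00517 and 0.00714). A fit of only the groups compared (0.00025 and 0.00456) and the replicate block (0.0241 and 0.0239) called both as well. Without AM80 replicate 2 only the difference beside ATRA passed (0.0486). The remaining alternatives that tested IER3 called neither difference, with adjusted p of up to 0.163 beside ATRA and 0.167 beside AM80. Against untreated cells the ratios by reads were 14.01 (6.49 to 36.0) and 19.1 (8.89 to 48.7).

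The effects of AM80 and ATRA at the same dose and time were compared directly. limma called 0 of the 7 tested members between AM80 and ATRA and 0.239% of all genes. No member had an unadjusted p under 0.05 in limma, and edgeR and DESeq2 also called 0 members, while calling 88 and 291 genes in all. The log2 difference was -0.07 for EGR1 (95% interval -0.40 to 0.26), -0.07 for IER2 (-0.30 to 0.15) and 0.05 for IER5 (-0.24 to 0.34). The interval was wider for EGR3, -0.46 (-1.08 to 0.15), and for IER3, 0.33 (-0.76 to 1.43). The AM80 libraries of EGR3 all lay below the ATRA libraries, and the share of all genes that separate so was not counted. NR4A1 differed by -0.04 (-0.49 to 0.42) and NR4A2 by 0.07 (-0.32 to 0.47). A p above the threshold does not show that the compounds act alike, and the intervals of EGR3 and IER3 leave room for differences of 2-fold.

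Between the combinations limma called 0 members and 0% of all genes, edgeR 0 members and DESeq2 1, IER5, among 98 genes in all. Unadjusted p-values were under 0.05 for 2 members, IER2 and IER5. All AM80 combination libraries exceeded all ATRA combination libraries for both genes, but the share of all genes that separate so was not counted. IER5 differed by 0.54 on the log2 scale (interval 0.25 to 0.83, adjusted p = 0.130) and IER2 by 0.39 (0.17 to 0.62, adjusted p = 0.135). Both passed in limma without untreated replicate 4 (adjusted p = 0.0273 and 0.0349) or without AM80 replicate 2 (0.0390 and 0.0342). These libraries belong to neither combination but enter the shared estimate of the spread. The same fits called 646 and 243 of all genes, against 0 in the main fit, so the gain was not particular to IER2 and IER5. The difference between the inhibitors' effects beside AM80 and beside ATRA was 0.49 for IER5 (interval 0.09 to 0.90, adjusted p = 0.257) and 0.47 for IER2 (0.15 to 0.79, adjusted p = 0.226). In that interaction limma called 0 members and 0% of all genes, 2 members had an unadjusted p under 0.05, and edgeR and DESeq2 called 0 members.

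**Figure D3:**
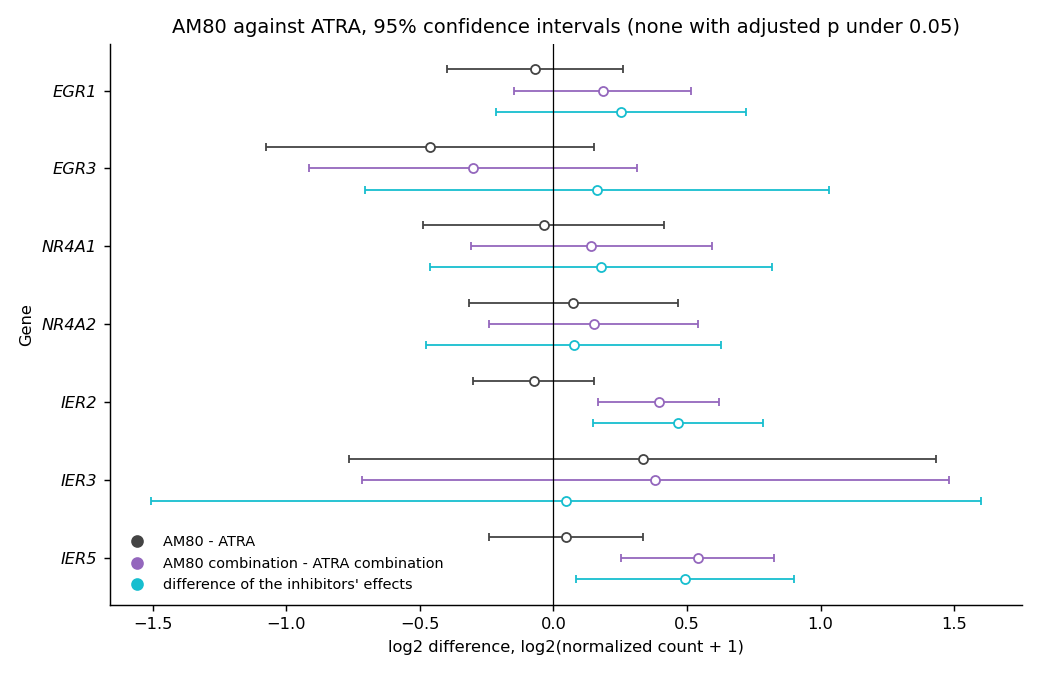
Differences between AM80 and ATRA (x axis, log2 of normalized count + 1) for the 7 tested genes, without inhibitors, with inhibitors, and as the difference of the inhibitors' effects, each with its 95% confidence interval from limma. All points are open because no adjusted p was under 0.05, and IER2 and IER5 have intervals above 0 in the latter 2.

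A list of 29 other immediate early genes was set beside the members, and 26 passed the filter. With ATRA 9 were higher and 11 lower (all genes 12.5% and 12.1%), and with AM80 10 and 9 (15.4% and 13.4%). The largest rise called with both retinoids was that of MAFF, a small MAF factor (log2 2.26 and 2.32), and the largest fall that of KLF4, a factor of monocyte differentiation (-1.32 and -1.26). When the inhibitors joined ATRA 13 rose and 3 fell (all genes 24.9% and 24.4%), and when they joined AM80 14 rose and 3 fell (19.9% and 19.5%). JUN, an AP-1 subunit, rose most (log2 1.36 and 1.85), and DUSP2, a MAP kinase phosphatase, fell most (-1.65 and -1.10). The median of the 26 genes was 0.31 beside ATRA and 0.49 beside AM80, where the median of all tested genes was -0.02 and -0.01.

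JUN was at 476 ± 69.3 normalized counts in untreated cells (SD, n = 4), fell to 201 ± 6.27 with ATRA and 226 ± 47.0 with AM80, and stood at 523 ± 98.2 and 810 ± 101 in the combinations (n = 3 each). FOS, the AP-1 partner of JUN, was chosen after its values were seen. It fell with the retinoids (log2 -0.83 and -0.75) and differed by -0.10 and -0.13 on adding the inhibitors (adjusted p = 0.482 and 0.391).

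**Figure D4:**
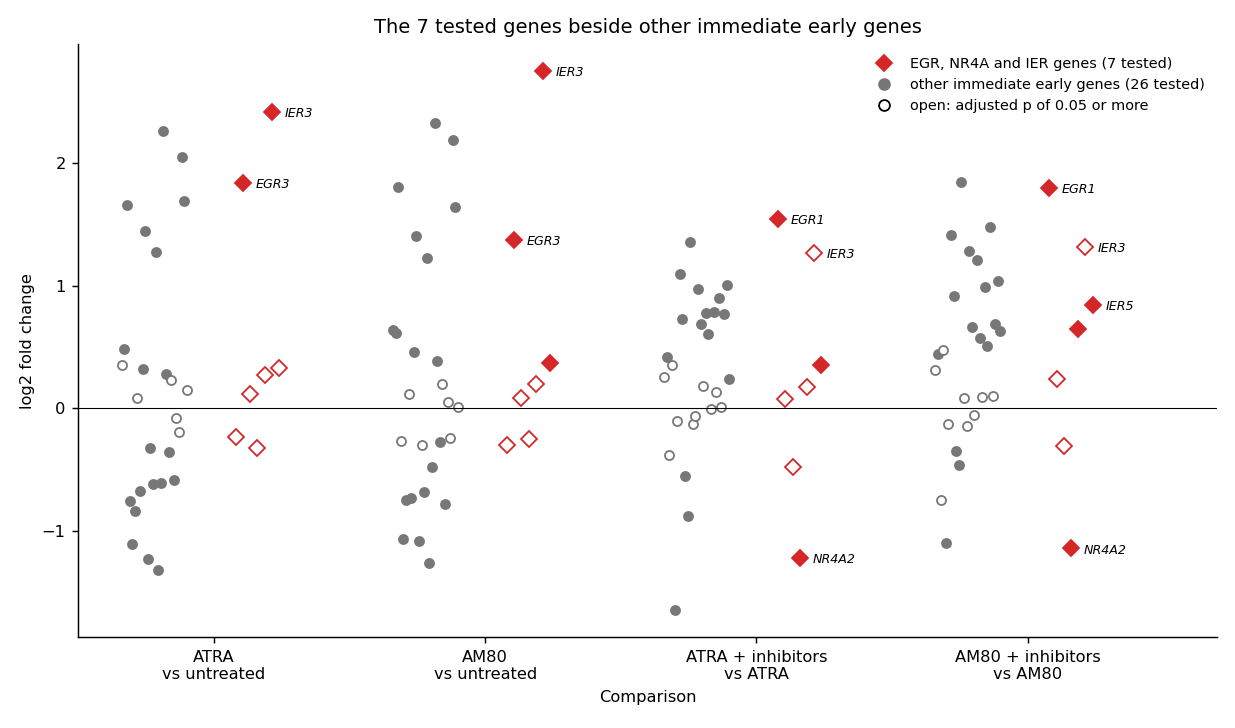
Fold changes (y axis, log2) of the 7 tested EGR, NR4A and IER genes (red diamonds) and of 26 other immediate early genes (grey circles) in 4 comparisons (x axis), with filled symbols for an adjusted p under 0.05. EGR1 is among the largest rises, and NR4A2 among the falls, when the inhibitors were added.

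Of 20 regulators that act upstream of immediate early genes, all were tested. With ATRA 7 were higher and 4 lower (all genes 12.5% and 12.1%), and with AM80 6 and 3 (15.4% and 13.4%). With the inhibitors added to ATRA 8 rose and 4 fell (24.9% and 24.4%), and added to AM80 8 rose and 5 fell (19.9% and 19.5%). ELK3, a ternary complex factor, rose most with the retinoids (log2 0.74 and 0.83), and MRTFA, an actin-sensing coactivator of serum response factor, fell most (-0.44 and -0.53). RPS6KA5, a kinase that phosphorylates CREB and histone H3, rose on adding the inhibitors (0.90 and 0.92), and its relative RPS6KA4 fell (-0.82 and -0.47). SRF, the factor of the CArG box, was named after its values were seen: it went from 1679 normalized counts in untreated cells to 1317 with ATRA and 888 with the ATRA combination, and fell on adding the inhibitors to ATRA (log2 -0.57, adjusted p = 8.08e-05) and to AM80 (-0.54, adjusted p = 0.00016).

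Of 9 partners and corepressors 8 were tested, with 0 higher and 4 lower with ATRA (all genes 12.5% and 12.1%) and 0 and 3 with AM80 (15.4% and 13.4%). NAB2, which binds EGR1, EGR2 and EGR3 and represses their activity and is itself an EGR target, fell most. It had 499 to 566 normalized counts in the 4 untreated libraries and 227 to 280 in the 6 retinoid libraries, with no overlap (log2 -1.03 and -1.05, adjusted p = 1.33e-07 and 9.63e-08). In the combinations NAB2 stood at 234 ± 7.78 beside ATRA and 307 ± 50.5 beside AM80 (SD, n = 3) and was not called against the retinoid (adjusted p = 0.296 and 0.0803). Adding the inhibitors gave 2 higher and 2 lower members of this list beside ATRA (all genes 24.9% and 24.4%) and 1 and 2 beside AM80 (19.9% and 19.5%). RCOR1, the CoREST scaffold that holds LSD1, rose (0.39 and 0.47), and KDM1A, which encodes LSD1, fell (-0.21 and -0.24).

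Of 7 genes that respond to handling and protein stress 5 were tested, and 4 rose and 0 fell on adding the inhibitors to either retinoid (all genes 24.9% and 24.4% for ATRA, 19.9% and 19.5% for AM80). EGR1 and IER5 were called higher in both of these comparisons too, and IER2 in that with AM80. HSPH1, a heat shock protein, rose by 2.07 and 2.18 on the log2 scale. The 7 genes summed to 62978 to 84157 normalized counts in the 10 libraries without inhibitors and to 141220 to 194830 in the 6 with them. With ATRA alone 1 was higher and 1 lower (all genes 12.5% and 12.1%) and with AM80 2 and 0 (15.4% and 13.4%), and DDIT3, a transcription factor of the integrated stress response, rose most (0.79 and 0.88). The heat shock genes HSPA1A and HSPA1B, near-identical copies, averaged at most 2.02 normalized counts in every group. Reads that match both copies may be split or left out in counting, so these values may understate the genes. The part of these genes in the changes of EGR1, IER2 and IER5 was not tested. In such bulk libraries, a change in the share of responding cells and a change in RNA per cell cannot be told apart.

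For each tested member, the gene with the most similar levels over the 16 libraries was sought among the 11028 genes averaging 50 or more normalized counts, by Pearson correlation of log2 values, a description only since libraries share groups. NR4A2 was closest to PRKCD, a protein kinase C (r = 0.990), and EGR1 to EIF1AD (r = 0.978). IER2 was closest to PGS1 (r = 0.967), IER5 to ATXN7L3, a SAGA complex subunit (r = 0.966), and IER3 to SYNJ1 (r = 0.946). EGR3 was closest to MREG, which also rose with both retinoids (r = 0.917), and NR4A1 had the weakest match, MAN1B1-DT (r = 0.840).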

How the data were processed

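RNA of 16 OCI-AML3 libraries was sequenced. The submitters' processing notes name FastQC, cutadapt, STAR, featureCounts and DESeq2, and neither their versions nor the genome build nor whether reads were counted by strand is given in the sources used here. The labels and the study's methods name different extraction and library kits. The deposited values are a signal per gene, read counts that the authors divided by DESeq2 size factors. Whole reads were recovered from the steps of these values, and 100% came out whole in every library (tolerance 0.001 reads). With 11963898 to 33789718 reads per library, exact 95% intervals and the floor of 3 reads cover counting error only.

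The table pairs 62700 identifiers with symbols. log2(normalized count + 1) of the 14643 genes averaging 10 or more was fitted over all 16 libraries with limma 3.58.1 (R 4.3.3), with a mean-variance trend, and fold changes on this scale understate those of low genes. Benjamini-Hochberg adjustment ran over all tested genes in each of 9 comparisons, and calls had an adjusted p under 0.05. Whether the libraries of groups overlap is stated for single genes only, and the share of all genes that separate was not counted. edgeR 4.0.16 and DESeq2 1.42.0 were run on the recovered reads as alternatives, and each fit was tested on simulated data. Positions are those of the GENCODE annotation on GRCh38, and promoters those of RefSeq on GRCh38.p14. EGR3, NR4A1, IER2 and IER3 overlap a gene on the opposite strand whose mean was at most 0.353 normalized counts.

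The members and gene lists (other immediate early genes, upstream regulators, partners and corepressors, handling and stress, retinoid response, and cell type markers) were chosen with earlier results of these data known. Beside the members, the text names from each list the gene with the largest rise and the largest fall called beside both retinoids, and the gene most similar to each member. Alternatives changed the pseudocount, filter, scaling, tool, samples fitted, replicate block and threshold, and left out each library in turn.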

Additional observations from a re-analysis of the deposited data

How the results depend on the processing

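Of 1674 alternative values of single members, 1582 kept their direction and side of the threshold, 16 calls at an adjusted p under 0.05 were lost while the member was still tested, all of IER5, 51 values newly passed, 25 uncalled values changed sign and 0 called values did. The number of members called with ATRA against untreated cells, 2, became 0 with a filter at a mean of 50, which removes EGR3, IER3 and NR4A2, and 4 with quantile normalization or a fit of only these groups, where IER2 and IER5 also passed. The same filter left 1 with AM80 and 3 with each combination against untreated cells. Adding the inhibitors to ATRA gave 6 in a fit of only these groups, and adding them to AM80 gave 2, EGR1 and NR4A2, at an adjusted p under 0.01 and 2-fold, with IER2 and IER5 under that fold. Between the combinations 2 were called in a fit of only these groups and 1 by DESeq2. Leaving out 1 library gave 2 to 4 members with ATRA (4 without untreated replicate 4 or AM80 replicate 2), 2 to 4 with AM80, 2 to 5 for the inhibitors beside ATRA (5 without AM80 replicate 2), 4 to 5 beside AM80, 6 for each combination against untreated cells, 0 between AM80 and ATRA and in the interaction, and 0 to 2 between the combinations. Replicate numbers are shared by the groups, but the deviations of same-numbered libraries correlated at -0.112 to 0.187 (30 pairs, 4 over 0.1) and 5 of 16 libraries were nearest to their own number, so the numbers were not taken as pairs. With the replicate block 4 members were called with ATRA and 2 between the combinations. Scaling to total reads moved the median of all genes by -0.145 and -0.123 for the inhibitors beside ATRA and AM80, and by -0.147 and -0.183 for the combinations against untreated cells. Under it EGR3 differed by -0.07 on adding the inhibitors to ATRA.

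Over all genes, limits of 1.5-fold and of 2-fold with an adjusted p under 0.01 reduced the 3609 genes called with ATRA to 1384 and 623, the 4211 with AM80 to 1490 and 625, the 7226 for the inhibitors beside ATRA to 2861 and 747, and the 5778 beside AM80 to 2300 and 690. The 8819 and 8004 genes called for the combinations against untreated cells became 4255 and 1573, and 3814 and 1485. The 35 genes called between AM80 and ATRA ranged from 0 to 458 over the alternatives (458 without untreated replicate 4, 402 with the replicate block, 291 by DESeq2, 88 by edgeR). Between the combinations 0 became 1975 in a fit of only these groups, 690 with the block, 646 without untreated replicate 4, 243 without AM80 replicate 2 and 98 by DESeq2. The interaction, with 0 in the main fit, gave 24 by DESeq2 and 41 without AM80 replicate 3. The depth limits EGR2, NR4A3 and untreated IER3, whose libraries hold a few reads each.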
